A study of Caenorhabditis elegans with 43 samples.

Results

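The abu and pqn genes of C. elegans were followed across 43 RNA-seq libraries of whole worms. Members were all rows of the filtered table of normalized CPM (reads of a gene scaled to a common library total) whose symbol is abu or pqn with a number. The rule found 62 of the 13837 genes, 11 abu and 51 pqn. A further 15 genes with such symbols were among the 46739 genes of the unfiltered table and had not passed the authors' filter. Of these 15, 2 are pseudogenes (abu-3 and pqn-11), 3 had no counted read in any library (pqn-76, pqn-78 and pqn-79), and the highest value of any was 2.11 CPM, for abu-2.

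The abu genes are named for being activated when the unfolded protein response of the endoplasmic reticulum is blocked. The pqn genes are named for a prion-like domain rich in glutamine or asparagine, so the symbol describes a stretch of sequence and not a shared function. Several abu genes and some pqn genes encode secreted proteins of the pharyngeal cuticle, such as abu-14, and are transcribed in waves with each molt. Other pqn genes encode proteins of unrelated function: pqn-85 is now called scc-2 and encodes the loader of cohesin onto chromosomes, pqn-44 is now called tent-5 and encodes a poly(A) polymerase, pqn-59 is the worm counterpart of the stress granule protein UBAP2L, pqn-41 encodes a polyglutamine-repeat protein known from the death of the linker cell, pqn-84 a galectin and pqn-68 a D-tyrosyl-tRNA deacylase.

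In WBcel235 coordinates the members lie on chromosome V (19 genes), III (11), II (10), X (9), I (9) and IV (4). The genes abu-15 (V, 5158602 to 5159907), abu-6 (V, 5160678 to 5161892) and abu-7 (V, 5163270 to 5164782) form a run within 20000 bases, abu-1 and pqn-2 are neighbours on chromosome V, and pqn-20 and pqn-21 lie within 20000 bases of each other on chromosome I, with other genes between them. The authors counted reads with the gene count option of STAR. Reads that fit several near-identical copies may go uncounted, so few or no reads for such copies need not mean no transcript. Whether this holds for pqn-76, pqn-78 and pqn-79 was not tested.

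All worms were prefertile young adults grown at 20 °C, about 1000 synchronized worms to a plate. The authors state that RNA was isolated separately for each library. Sequencing batch 1 held nuo-6;hif-1 (2 libraries), hif-1 (3), atfs-1(et15) (5), worms labelled as an atfs-1 deletion (3), atfs-1(et17) (6) and wild-type worms (3). Batch 2 held nuo-6 (6) and wild-type worms (6). Batch 3 held nuo-6;atfs-1 (3), worms labelled atfs-1 (3) and wild-type worms (3). The nuo-6(qm200) mutation lies in a subunit of mitochondrial complex I. ATFS-1 is the transcription factor of the mitochondrial unfolded protein response. The et15 and et17 alleles are gain-of-function point mutations in its mitochondrial targeting sequence, and gk3094 is the deletion among the strains of the study, to which both deletion labels were assigned. The hif-1(ia4) mutation removes the hypoxia-inducible factor. The genotype nuo-6;atfs-1 was read from a strain code, which is all that those labels give. The authors had removed 1 nuo-6;hif-1 and 1 atfs-1(et15) library as outliers.

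The libraries held 21466920 to 48493377 counted reads. Transcripts of atfs-1 averaged 25.5 CPM in the batch 1 deletion libraries, 26.6 CPM in the atfs-1 libraries of batch 3 and 27.2 CPM in nuo-6;atfs-1 libraries, against 67.4 to 70.3 CPM in the wild types. Transcripts of hif-1 averaged 26.4 CPM in hif-1 libraries and 39.2 CPM in nuo-6;hif-1 libraries, against 206 CPM in wild-type libraries of batch 1. A point mutation need not alter its own transcript, so nuo-6 levels (mean 178 CPM in nuo-6 libraries and 126 CPM in batch 2 wild type) do not check that label.

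The 3 atfs-1 deletion libraries labelled batch 1 resembled batch 3 libraries. Over the 903 pairs of libraries, the 2 with the smallest chi-square distance (per degree of freedom, over genes with at least 20 reads in the pair) were deletion replicate 2 with atfs-1 replicate bl of batch 3 (8.14) and deletion replicate 3 with atfs-1 replicate r of batch 3 (8.21). The next pair stood at 19.2, and the deletion libraries stood 84.1 to 226 from the wild-type libraries of their own labelled batch. They stood 19.7 to 137 from the wild-type libraries of batch 3, and the batch 1 wild-type libraries stood 69.0 to 190 from each other. Deletion replicate 1 was less close to batch 3, at 43.5 from wild-type replicate b and 53.8 from atfs-1 replicate b. No pair agreed within sampling noise, and all libraries were kept. That check considers read sampling alone, so it does not show that the groups are independent. The 11 abu genes summed to 109, 66.9 and 56.5 CPM in deletion replicates 1, 2 and 3. They summed to 100, 63.6 and 56.4 CPM in atfs-1 replicates b, bl and r of batch 3. Whether these groups share worms or RNA was not tested, and the fit counts them as separate libraries. Between atfs-1 libraries of batch 3 and the batch 1 deletion libraries compared directly, 0 of 13837 genes passed the test (limma, 13 at an unadjusted p under 0.05, edgeR 0, and 16 unadjusted). The count of members called in the deletion libraries is therefore given against the wild types of both batches.

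Abu transcripts differed between batches in wild type. In wild-type worms the 11 abu genes summed to 131, 70.1 and 95.4 CPM in batch 3, against 288, 609 and 155 CPM in batch 1 and 386 to 865 CPM in batch 2. Between wild types, 25 of the 62 members were lower in batch 3 than in batch 1 and 2 were higher (background over all genes 10.9% lower and 13.6% higher), and 33 were lower and 2 higher in batch 3 than in batch 2 (20.4% and 24.7%). Between batches 2 and 1, 0 members passed in either direction (limma, background 0.108% higher and 0.181% lower, 11 higher and 1 lower at an unadjusted p under 0.05). Some other lists had lower sums too. The 5 of 6 listed pharyngeal muscle genes in the table summed to 199 to 248 CPM in batch 3 wild type and to 1082 to 1195 CPM in batch 1 wild type. The 5 of 7 listed pharyngeal gland genes summed to 21.5 to 31.9 CPM in batch 3 and 62.3 to 115.01 CPM in batch 1, and 9 genes of other whole-worm tissues to 2032 to 3830 CPM in batch 3 and 7527 to 8360 CPM in batch 1. The mean log2 level of those 9 genes differed less, at 5.98 in batch 3 and 6.23 in batch 1. Mean log2 levels were higher in batch 3 for molting genes (4.68, against 3.98 in batch 1) and oocyte and eggshell genes (8.64, against 8.29). Those of the remaining lists were lower. The part of these lists in the abu difference was not tested. In whole worms, fewer cells of a type and less RNA per cell cannot be told apart.

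**Figure D1:**
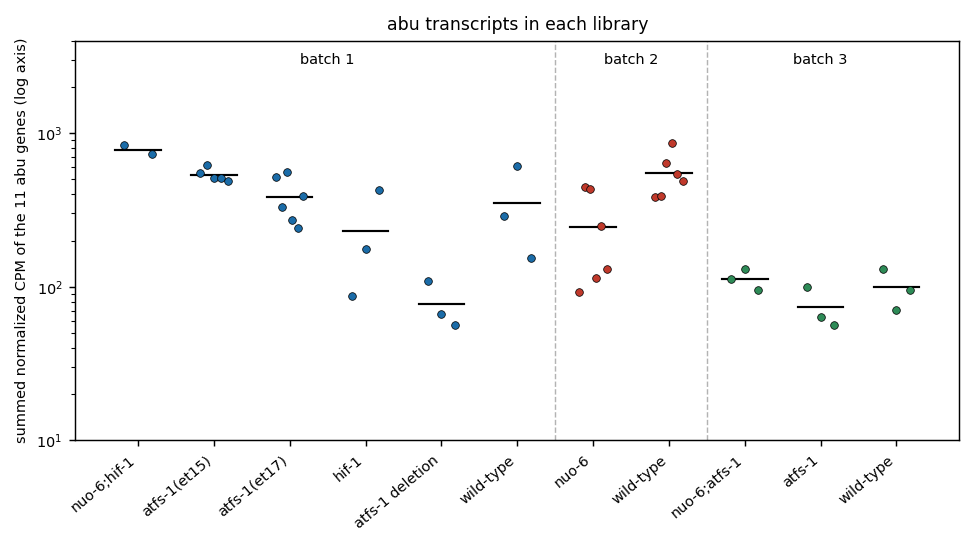
Summed normalized CPM of the 11 abu genes (vertical log axis) in each library, by genotype and sequencing batch, with points for libraries and bars for group means. All 9 libraries of batch 3 and the 3 atfs-1 deletion libraries labelled batch 1 lie between 56.4 and 131 CPM, whereas the 2 nuo-6;hif-1 libraries lie at 832 and 733 CPM.

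Differences below are log2 differences of normalized CPM plus 0.5, tested with limma in 1 fit of all libraries. A gene is called higher or lower where the Benjamini-Hochberg adjusted p over all 13837 genes is under 0.05, and the share of all genes called the same way is the background. Each mutant is compared with wild type of its batch. The 5 mutants of batch 1 share the same 3 wild-type libraries, among which the abu sum spanned 155 to 609 CPM: wild-type replicate 2 was the highest of the 3 for 11 of 11 abu genes and replicate 3 the lowest for 11 of 11.

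**Figure D2:**
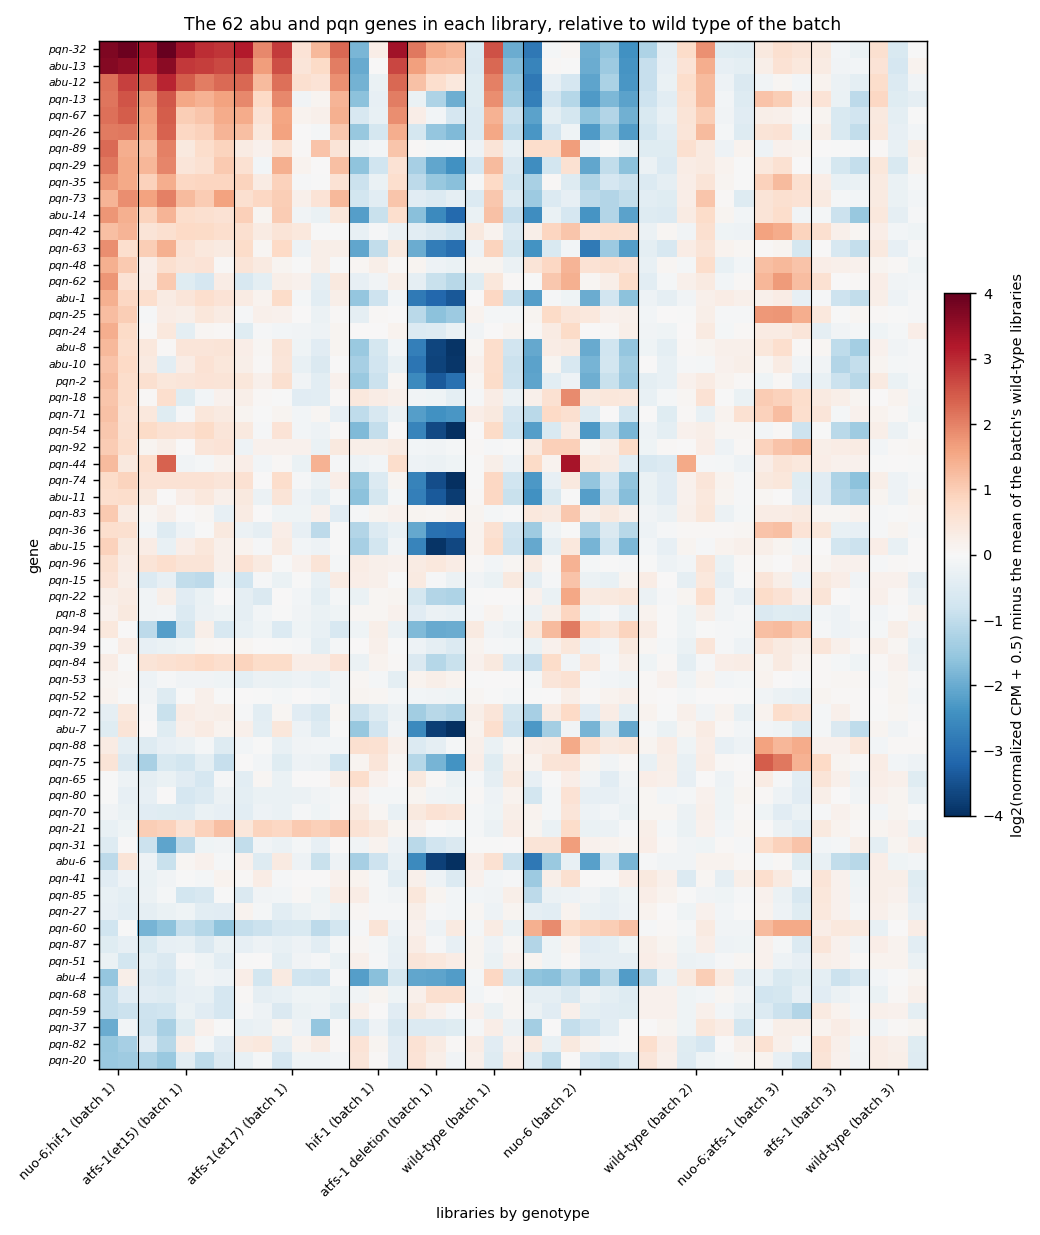
log2(normalized CPM + 0.5) of the 62 genes (rows) in each of the 43 libraries (columns, by genotype and batch), minus the mean of the wild-type libraries of that batch, with red higher, blue lower and a colour scale that ends at 4 in each direction. The abu genes are blue in most nuo-6 libraries, 9 of the 11 are blue in the deletion libraries labelled batch 1, and pqn-32, abu-13 and abu-12 are red in every nuo-6;hif-1 and atfs-1(et15) library.

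In nuo-6 worms, 10 of 11 abu genes were lower than in wild type and none was higher. The 51 pqn genes were divided, with 13 lower and 9 higher. Together 23 of 62 members were lower, where 18% of all genes were, and 9 were higher, where 22.4% were. The median difference was −1.40 for abu genes and −0.01 for pqn genes, beside −0.03 over all genes.

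The abu gene with the largest difference was abu-4. It spanned 0.0829 to 0.759 CPM in nuo-6 (median 0.380) and 0.799 to 4.94 CPM in wild type (median 2.35). No nuo-6 library reached the lowest wild-type library, and the difference was −1.60 (SE 0.30, limma adjusted p = 5.3e-05). At these levels the pseudocount reduces the difference. Likewise abu-6 spanned 1.59 to 12 CPM in nuo-6 (median 4.34), against 13.4 to 16.1 CPM in wild type (median 14.7), with a difference of −1.57 (SE 0.32, adjusted p = 0.000192).

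For the other called abu genes some nuo-6 libraries reached the wild-type range. The pharyngeal cuticle gene abu-14 had 33.6 to 160 CPM in nuo-6 (median 63.8) and 131 to 321 CPM in wild type (median 191), a difference of −1.51 (SE 0.40, adjusted p = 0.00251). Replicates 2 and 3 held the most abu transcripts among the nuo-6 libraries, with sums of 448 and 435 CPM, whereas the other 4 held 92.7 to 249 CPM. The genes abu-1, abu-7, abu-8, abu-10, abu-11, abu-12 and abu-15 fell by 0.96 to 1.59. The remaining abu gene, abu-13, had a difference of −1.40 that did not pass (adjusted p = 0.0507).

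Among pqn genes, those lower in nuo-6 by at least as much as abu-1 were pqn-13, pqn-63, pqn-26, pqn-67, pqn-54, pqn-29 and pqn-2. The largest fall was that of pqn-13, with 5.26 to 21.9 CPM in nuo-6 (median 9.26) and 21.0 to 90.6 CPM in wild type (median 31.3), a difference of −1.81 (SE 0.51, adjusted p = 0.00438). The tRNA deacylase gene pqn-68 was lower by little but in every library, with 3.80 to 4.91 CPM in nuo-6 and 5.21 to 6.69 CPM in wild type. Its difference was −0.40 (SE 0.11, adjusted p = 0.00372).

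The 9 pqn genes that rose in nuo-6 were pqn-18, pqn-25, pqn-42, pqn-48, pqn-60, pqn-83, pqn-88, pqn-92 and pqn-94. Levels of pqn-60, whose current symbol is srlf-35, were 3.14 to 7.67 CPM in nuo-6 (median 4.14) and 1.48 to 2.30 CPM in wild type (median 1.62), a difference of 1.18 (SE 0.18, adjusted p = 1.54e-06). Levels of pqn-94 were 28.0 to 87.2 CPM in nuo-6 (median 36.3) and 17.8 to 25.4 CPM in wild type (median 19.6), a difference of 1.00 (SE 0.24, adjusted p = 0.000863). In both genes every nuo-6 library was above every wild-type library. Replicate 3 of nuo-6 stood apart among these genes: it was the highest of the 6 nuo-6 libraries for 40 of 51 pqn genes, and the poly(A) polymerase gene pqn-44 had 1308 CPM there, against a highest value of 381 CPM in wild type. This replicate held the fewest reads of all libraries (21466920). It also had the largest scaling constant of the authors (1.18, against 0.894 to 1.08 in the other nuo-6 libraries). Without that replicate 29 members were lower.

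The listed molting genes moved with the abu genes. Of 16, 6 were lower in nuo-6 and 0 higher (median difference −0.98), and their summed CPM was 265 to 1192 in nuo-6 and 593 to 4333 in wild type. Pharyngeal muscle genes had 0 of 5 called in nuo-6, and chs-2, the chitin synthase of the pharyngeal cuticle, was lower (difference −1.40). With the mean level of the molting genes as a covariate, 18 members were lower and 14 higher, and 8 of the 10 abu genes that had been called lower still were. The member median was then −0.19, beside 0.01 over all genes. The share of all genes called with this covariate is not given, so whether these counts are particular to the members cannot be told. Genes of the endoplasmic reticulum unfolded protein response, whose block gave the abu genes their name, had 5 of 17 lower and 0 higher.

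In nuo-6;hif-1 worms 21 of 62 members were higher than in wild type of batch 1, where 29.8% of all genes were, and 6 were lower, where 26.2% were. The count higher is near the background share and the count lower is below it. The abu genes had 4 higher and 0 lower. Both double-mutant libraries held larger abu sums (832 and 733 CPM) than any of the 3 wild-type libraries (288, 609 and 155 CPM). The median difference was 0.96 for abu genes and 0.29 for pqn genes, beside 0.04 over all genes.

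The largest difference was that of pqn-32, with 178 and 200 CPM in nuo-6;hif-1 and 8.59, 77.6 and 2.84 CPM in wild type (difference 3.82, SE 1.02, adjusted p = 0.00218). It was followed by abu-13, with 134 and 122 CPM in nuo-6;hif-1 and 6.57, 51.0 and 2.69 CPM in wild type (difference 3.61, SE 0.92, adjusted p = 0.00142). For abu-12 the values were 50.7 and 73.9 CPM in nuo-6;hif-1 and 7.34, 44.5 and 3.36 CPM in wild type (difference 2.48, SE 0.82, adjusted p = 0.0108). In all of these both mutant libraries lay above all 3 wild-type libraries, and wild-type replicate 2 was far above the other wild-type replicates.

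The genes pqn-13 and pqn-67 differed by 2.33 and 2.31, abu-14 by 1.60 and abu-1 by 1.13, all called. With edgeR on the recovered reads only abu-13 among the abu genes was called (adjusted p = 0.0163). The other 7 abu genes did not pass: abu-10, abu-8, abu-11 and abu-15 had differences of 0.65 to 1.00, abu-7 of 0.01, abu-6 of −0.26 and abu-4 of −0.66. The last of these had 0.564 and 3.18 CPM in nuo-6;hif-1 and 2.44, 5.01 and 1.38 CPM in wild type. Both abu-6 and abu-7, neighbours on chromosome V, were lower in nuo-6.

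The 6 members that fell in these worms were all pqn genes (pqn-20, pqn-37, pqn-51, pqn-59, pqn-68 and pqn-82). Levels of pqn-20 were 78.2 and 81.8 CPM in nuo-6;hif-1 and 255, 156 and 271 CPM in wild type (difference −1.46, SE 0.33, adjusted p = 0.000439), and those of the UBAP2L counterpart pqn-59 were 367 and 390 CPM in nuo-6;hif-1 and 801, 588 and 750 CPM in wild type (difference −0.90, SE 0.22, adjusted p = 0.00119). Levels of pqn-82 were 4.96 and 5.71 CPM in nuo-6;hif-1 and 18.5, 10.8 and 17.2 CPM in wild type (difference −1.43). The groups did not overlap in any of these.

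**Figure D3:**
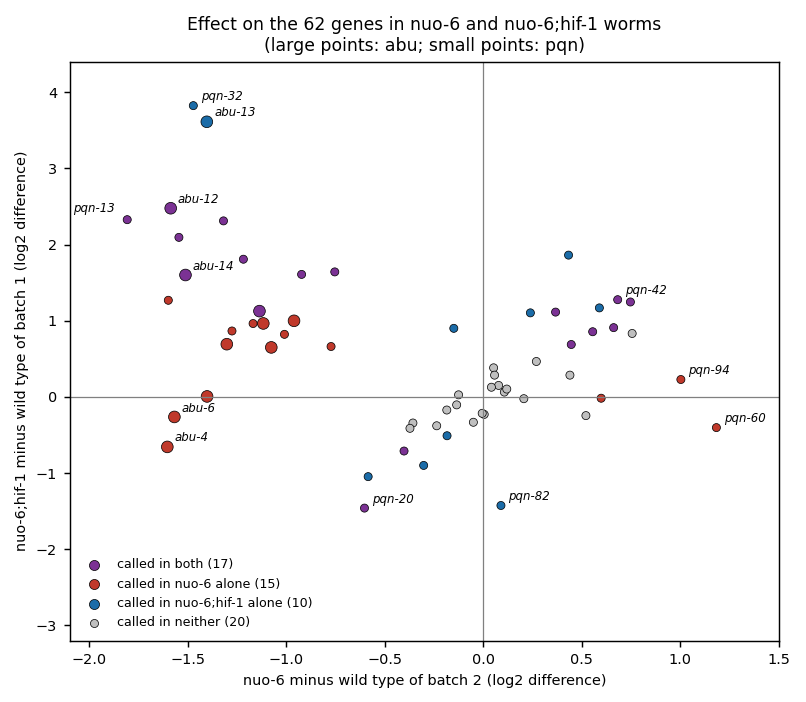
log2 difference of each of the 62 genes in nuo-6 minus wild type of batch 2 (horizontal) and in nuo-6;hif-1 minus wild type of batch 1 (vertical), where large points are abu genes and colours give the comparisons in which a gene was called. The 9 genes called lower in nuo-6 and higher in nuo-6;hif-1 are the purple points at the upper left.

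A set of 9 members was lower in nuo-6 and higher in nuo-6;hif-1, each against its own wild type: abu-1, abu-12, abu-14, pqn-13, pqn-26, pqn-29, pqn-35, pqn-67 and pqn-73. They made up 39.1% of the 23 members lower in nuo-6 and 42.9% of the 21 higher in nuo-6;hif-1. Over all genes the same overlap was 17.9% of the 2484 lower in nuo-6 and 10.8% of the 4123 higher in the double mutant. These shares are from limma calls, and the set depended on the method. Only pqn-35, pqn-67 and pqn-73 of the 9 passed in both directions with edgeR on the recovered reads. For the double mutant, none of the 9 passed once the molting level was a covariate. The nuo-6 and nuo-6;hif-1 comparisons with wild type share no library, and the difference between them was not tested. A further 6 members were higher in both (pqn-18, pqn-25, pqn-42, pqn-48, pqn-83 and pqn-92), or 66.7% of the 9 members higher in nuo-6. The like share over all genes was 56.4% of 3094.

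The same libraries also differed from wild type in genes of developmental stage. The molting list had 12 of 16 genes higher and 0 lower, with sums of 2533 and 2960 CPM in nuo-6;hif-1 and 279, 911 and 250 CPM in wild type. Genes of yolk (6 of 6), oocyte and eggshell (16 of 16) and sperm (31 of 33 in the table) were lower. Pharyngeal muscle had 0 of 5 called, pharyngeal gland 4 of 5 higher, and the endoplasmic reticulum list 7 of 17 higher. With the molting level as a covariate, 4 members were higher and 3 lower, and 0 of the 4 abu genes remained called. The 4 still higher were pqn-24, pqn-25, pqn-42 and pqn-48. The member median was then −0.14, beside 0.04 over all genes, and the share of all genes called with the covariate is not given. Molting levels of nuo-6;hif-1 and wild type did not overlap, so covariate and genotype cannot be told apart from these groups. Without wild-type replicate 3, or without nuo-6;hif-1 replicate 2, there were 13 members higher.

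In hif-1 worms 0 members were called in either direction, where 0.369% of all genes were higher and 0.152% lower (limma, 3 members at an unadjusted p under 0.05, edgeR 0). The 3 libraries were far apart, with abu sums of 87.6, 175 and 429 CPM, against 288, 609 and 155 CPM in wild type. Replicate 3 was the highest of the 3 hif-1 libraries for 11 of 11 abu genes and replicate 1 the lowest for 11 of 11. The largest difference was that of abu-4, with 0.180, 0.471 and 1.43 CPM in hif-1 and 2.44, 5.01 and 1.38 CPM in wild type (difference −1.52, SE 0.42, limma adjusted p = 0.128). Without hif-1 replicate 3, 1 member was called lower. The molting sums were 242, 339 and 1188 CPM in the same hif-1 libraries, in the order of the abu sums.

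Compared with hif-1 worms in place of wild type, nuo-6;hif-1 worms had 29 members higher, where 28% of all genes were, and 6 lower, where 23.9% were. The abu genes had 8 of 11 higher: abu-1, abu-8, abu-10, abu-11, abu-12, abu-13, abu-14 and abu-15. For abu-14 the values were 309 and 243 CPM in nuo-6;hif-1 and 19.4, 48.7 and 144 CPM in hif-1 (difference 2.40, SE 0.63, limma adjusted p = 0.00217). For abu-1 they were 33.2 and 22.2 CPM in nuo-6;hif-1 and 3.85, 6.63 and 11.2 CPM in hif-1 (difference 1.95, SE 0.47, adjusted p = 0.001). Both double-mutant libraries exceeded all hif-1 libraries in these genes. This comparison uses the same double-mutant libraries as the one with wild type. Molting genes had 12 of 16 higher, pharyngeal gland genes 5 of 5 higher, and yolk (6 of 6), oocyte and eggshell (16 of 16) and sperm (31 of 33) genes were lower. With the molting level as a covariate, 4 members were higher and 0 lower, with a member median of −0.01 beside 0.04 over all genes. The share of all genes called in that fit is not given. Molting levels of nuo-6;hif-1 and hif-1 did not overlap either. Without hif-1 replicate 1 there were 19 members higher.

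In worms with the gain-of-function allele atfs-1(et15), 11 of 62 members were higher, where 16.9% of all genes were, and 8 were lower, where 16.4% were. Neither count stands clearly above the background share. The largest rises were those of pqn-32, abu-13 and abu-12, the same 3 as in nuo-6;hif-1, which was set against the same wild-type libraries. For pqn-32 the values were 130, 222, 137, 103 and 96.7 CPM in atfs-1(et15) and 8.59, 77.6 and 2.84 CPM in wild type (difference 3.31, SE 0.82, adjusted p = 0.00225). For abu-13 they were 91.5, 129, 74.8, 70.2 and 65.6 CPM in atfs-1(et15) and 6.57, 51.0 and 2.69 CPM in wild type (difference 3.00, SE 0.73, adjusted p = 0.00208). For abu-12 they were 60.5, 91.6, 58.9, 45.7 and 52.9 CPM in atfs-1(et15) and 7.34, 44.5 and 3.36 CPM in wild type (difference 2.45, SE 0.65, adjusted p = 0.00434).

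All 5 mutant libraries were above wild type for these genes. With edgeR abu-13 stayed under the threshold (adjusted p = 0.0444), whereas pqn-32 (0.0554) and abu-12 (0.0573) did not. The other 9 abu genes were not called in atfs-1(et15), and abu-4 and abu-6 had differences of −0.38 and −0.18. The counts depended on single libraries. Without wild-type replicate 3 there were 2 members higher and 2 lower in atfs-1(et15), without wild-type replicate 2 there were 14 and 10, without wild-type replicate 1 there were 7 and 3, and without atfs-1(et15) replicate 3 there were 5 lower. The molting list had 12 of 16 genes higher and 0 lower, with sums of 1255 to 4390 CPM in atfs-1(et15) and 250 to 911 CPM in wild type, yolk genes had 6 of 6 lower, oocyte and eggshell genes 8 of 16 lower and pharyngeal muscle genes 3 of 5 lower.

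With the molting level as a covariate, 1 member was higher in atfs-1(et15), pqn-21, and 2 were lower. The member median was then −0.42, beside −0.03 over all genes, and the share of all genes called with the covariate is not given. Molting levels of atfs-1(et15) and wild type did not overlap, so covariate and genotype cannot be told apart from these groups. The gene pqn-21 encodes a putative MAP-like protein. It had 71.3, 68.8, 54.1, 68.2 and 84.2 CPM in atfs-1(et15) and 34.4, 30.7 and 44.5 CPM in wild type (difference 0.92, SE 0.18, adjusted p = 0.000196). The opposite was seen for pqn-60, with 0.447, 0.605, 1.28, 1.09 and 0.632 CPM in atfs-1(et15) and 2.82, 3.87 and 2.38 CPM in wild type (difference −1.45, SE 0.22, adjusted p = 6.63e-06). Neither gene's groups overlapped. The nearby pqn-20 moved the other way, with 94.4, 78.3, 165, 108 and 147 CPM in atfs-1(et15) and 255, 156 and 271 CPM in wild type (difference −0.95, SE 0.26, adjusted p = 0.00551). The UBAP2L counterpart pqn-59 was lower, with 394 to 586 CPM in atfs-1(et15) and 588 to 801 CPM in wild type (difference −0.61, SE 0.18, adjusted p = 0.00879).

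**Figure D4:**
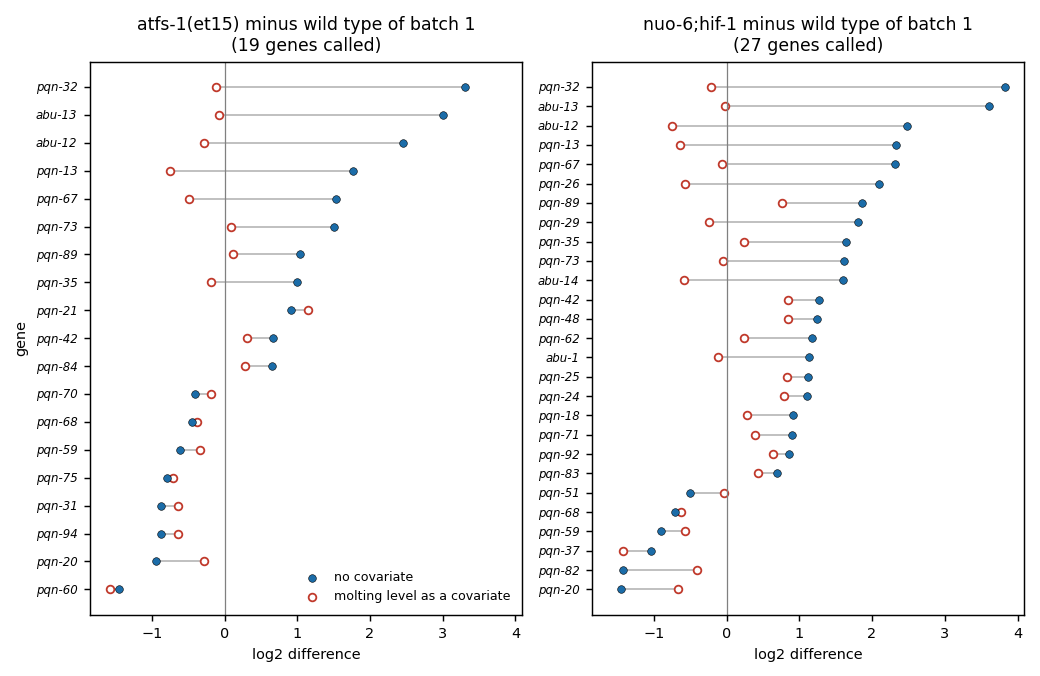
log2 difference (horizontal) of each gene called in atfs-1(et15) minus wild type (left, 19 genes) and nuo-6;hif-1 minus wild type (right, 27 genes), without a covariate (filled) and with the mean level of 16 molting genes as a covariate (open). With the covariate pqn-32 lies at −0.11 in atfs-1(et15) and −0.21 in nuo-6;hif-1, whereas pqn-21 and pqn-60 in atfs-1(et15) stay near their first values. Molting levels of neither mutant overlapped those of wild type.

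In atfs-1(et17) worms, 1 member was higher, where 2.85% of all genes were, and 1 was lower, where 1.24% were, and these were again pqn-21 and pqn-60. Levels of pqn-21 were 49.4 to 78.7 CPM in atfs-1(et17) (median 68.9) and 34.4, 30.7 and 44.5 CPM in wild type (difference 0.88, SE 0.17, adjusted p = 0.000804). Levels of pqn-60 were 1.18 to 1.78 CPM in atfs-1(et17) (median 1.5) and 2.82, 3.87 and 2.38 CPM in wild type (difference −0.81, SE 0.22, adjusted p = 0.0215). All 6 mutant libraries lay beyond the 3 wild-type libraries in both genes. The comparison shares its wild-type libraries with that of atfs-1(et15). Abu sums were 240 to 555 CPM in atfs-1(et17), within the wild-type range, and 0 of 11 abu genes were called (limma, 2 at an unadjusted p under 0.05, edgeR 0). Molting genes had 0 of 16 called. Without wild-type replicate 2 there were 5 members higher and 0 lower, and without wild-type replicate 1 there were 0 lower.

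Between the gain-of-function alleles, 0 members were higher in atfs-1(et15) than in atfs-1(et17), where 6.29% of all genes were, and 2 were lower, where 5.13% were. The first was pqn-20, with 94.4, 78.3, 165, 108 and 147 CPM in atfs-1(et15) and 139 to 207 CPM in atfs-1(et17) (median 196). Its difference was −0.70 (SE 0.22, limma adjusted p = 0.0339). The second was pqn-60, with a difference of −0.64 (SE 0.19, adjusted p = 0.0247). The alleles overlapped in both genes. For pqn-21 the difference between the alleles was 0.04 (SE 0.15, adjusted p = 0.89). For abu-13 it was 1.29 (SE 0.61, adjusted p = 0.146), and 5 of 16 molting genes were higher in atfs-1(et15). The count of 0 higher came with 4 members at an unadjusted p under 0.05 (limma, edgeR 0). Without replicate 2 or 3 of atfs-1(et15), or replicate 4 of atfs-1(et17), 0 members were lower, and without replicate 2, 5 or 6 of atfs-1(et17) 1 was.

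Against wild type of batch 1, the atfs-1 deletion libraries labelled batch 1 had 24 members lower, where 13.8% of all genes were, and 2 higher, where 18% were. Of 11 abu genes, 9 were lower. The count of 2 higher was 0 without wild-type replicate 1 or without deletion replicate 2 or 3, and 1 without wild-type replicate 2. For abu-10 the values were 3.66, 1.89 and 1.62 CPM in the deletion libraries and 34.9, 50.3 and 16.6 CPM in wild type (difference −3.51, SE 0.40, adjusted p = 1.8e-07). For abu-7 they were 2.23, 0.676 and 0.478 CPM in the deletion libraries and 17.3, 25.2 and 8.53 CPM in wild type (difference −3.45, SE 0.42, adjusted p = 7.43e-07). The genes pqn-54, abu-8 and abu-6 had differences of −3.46, −3.44 and −3.43 with no overlap between the groups.

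Against wild type of batch 3, 0 of the 62 members differed in the same deletion libraries, where 0.159% of all genes were higher and 0.065% lower (limma, 1 member at an unadjusted p under 0.05, edgeR 0, and 2 unadjusted). The batch 3 wild-type values of abu-10 were 4.28, 3.75 and 3.83 CPM and those of abu-7 were 2.02, 1.60 and 1.87 CPM, near the deletion libraries and below batch 1 wild type. The gene pqn-68, called higher against batch 1 (difference 0.50), had a difference of −0.06 against batch 3. Whether the calls against batch 1 come from the deletion or from the batch cannot be told apart within batch 1.

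The abu genes abu-12 and abu-13 did not share this pattern. For abu-13 the values were 32.2, 22.6 and 22.2 CPM in the deletion libraries, 38.1, 16.0 and 29.0 CPM in batch 3 wild type and 6.57, 51.0 and 2.69 CPM in batch 1 wild type. Neither gene was called in the deletion libraries against either wild type, nor between the wild types of batches 3 and 1. The 5 pharyngeal muscle genes and the 5 pharyngeal gland genes in the table were all lower in the deletion libraries than in batch 1 wild type, whereas 5 of 16 molting genes were higher and 1 lower. The sums of the pharyngeal muscle genes were 125 to 318 CPM in the deletion libraries, 199 to 248 CPM in batch 3 wild type and 1082 to 1195 CPM in batch 1 wild type.

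In the worms labelled atfs-1 of batch 3, 0 members were called, where 0.152% of all genes were higher and 0.0361% lower (limma, 2 members at an unadjusted p under 0.05, pqn-74 and abu-11, edgeR 0). Abu sums were 100, 63.6 and 56.4 CPM in atfs-1 libraries and 131, 70.1 and 95.4 CPM in wild type. For abu-10 the values were 3.58, 1.45 and 1.81 CPM in atfs-1 libraries, below all 3 wild-type libraries of the batch (4.28, 3.75 and 3.83 CPM), with a difference of −0.75 (SE 0.40) that did not pass (adjusted p = 1). The effect in batch 3 minus that in batch 1, a test that takes both deletion groups as independent, passed for 14 members. All 14 were higher, where 1.09% of all genes were higher and 0.094% lower. Each of them had been called lower in the deletion libraries against wild type of batch 1. The difference passed for 0 members when the batch 3 wild type was used for both (background 0% each way, 0 members at an unadjusted p under 0.05, edgeR 0). The 14 became 3 without atfs-1 replicate b, 9 without atfs-1 replicate bl, 4 and 7 without wild-type replicates 2 and 1, 7 without wild-type replicate bl or r, and 6 and 5 without deletion replicates 2 and 3. No member was lower (1 at an unadjusted p under 0.05, edgeR 0), but 1 was without wild-type replicate 3 or b or without deletion replicate 1.

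**Figure D5:**
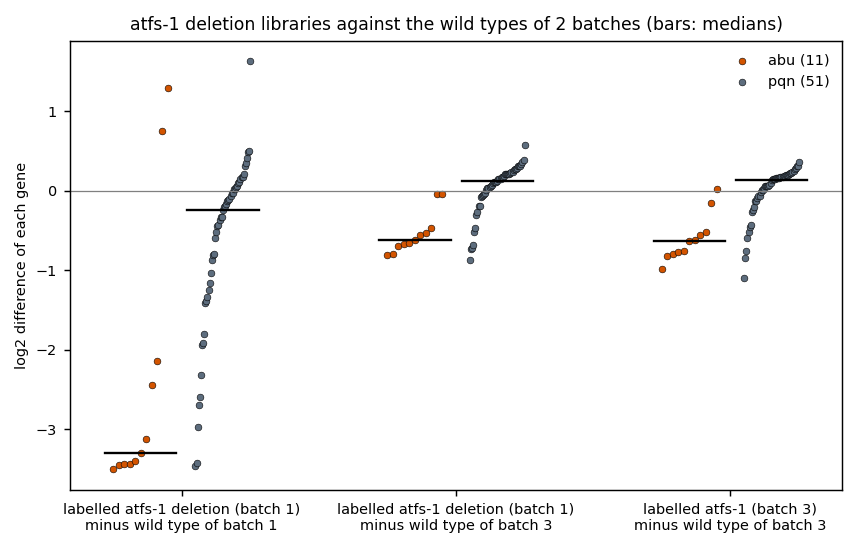
log2 difference (vertical) of the 11 abu and 51 pqn genes for the atfs-1 deletion libraries labelled batch 1 minus wild type of batch 1 (left), the same libraries minus wild type of batch 3 (middle), and the atfs-1 libraries of batch 3 minus wild type of batch 3 (right), where points are genes and bars are medians. The abu median is −3.30 at the left, and 0 genes were called in the middle or at the right.

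In nuo-6;atfs-1 worms 12 members were higher than in wild type of batch 3, where 11.1% of all genes were, and 3 were lower, where 6.03% were. All 15 were pqn genes. The abu genes had 0 called (limma, 0 at an unadjusted p under 0.05, edgeR 0), and their sums were 112, 131 and 95.5 CPM in nuo-6;atfs-1 and 131, 70.1 and 95.4 CPM in wild type. The median difference was 0.06 for abu genes and 0.31 for pqn genes, beside −0.04 over all genes.

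The pqn genes that rose most were pqn-75, pqn-25 and pqn-88. For pqn-75 the values were 9.22, 7.40 and 4.34 CPM in nuo-6;atfs-1 and 1.76, 1.19 and 1.10 CPM in wild type (difference 1.98, SE 0.30, adjusted p = 1.01e-05). For pqn-25 they were 6.75, 6.87 and 5.48 CPM in nuo-6;atfs-1 and 1.76, 1.62 and 1.61 CPM in wild type (difference 1.66, SE 0.16, adjusted p = 4.23e-09). The genes pqn-88, pqn-60 and pqn-62 differed by 1.47, 1.43 and 1.42. In each of these 5 genes every mutant library was above every wild-type library. Between wild types, pqn-75, pqn-25 and pqn-62 were lower in batch 3 than in batch 2, with differences of −2.01, −1.99 and −1.38. The genes pqn-88 and pqn-60 were not called there (differences −0.40 and 0.39). The part of these wild-type levels in the result was not tested.

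The 3 genes that fell were pqn-59, pqn-68 and pqn-8. Levels of pqn-59 were 458, 364 and 295 CPM in nuo-6;atfs-1 and 763, 752 and 509 CPM in wild type (difference −0.86, SE 0.20, adjusted p = 0.00249). Levels of pqn-68 were 6.04, 6.35 and 8.46 CPM in nuo-6;atfs-1 and 8.84, 11.2 and 12.5 CPM in wild type (difference −0.61, SE 0.16, adjusted p = 0.00599). Among the lists, 1 of 16 molting genes was higher, 2 of 5 pharyngeal gland genes were higher and 0 of 5 pharyngeal muscle genes were called.

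Set against the atfs-1 libraries of the same batch, nuo-6;atfs-1 worms had 12 members higher, where 8.07% of all genes were, and 1 lower, where 6.22% were. The gene that fell was pqn-59 (difference −0.99). For pqn-75 the values were 9.22, 7.40 and 4.34 CPM in nuo-6;atfs-1 and 2.67, 1.48 and 1.39 CPM in atfs-1 (difference 1.66, SE 0.30, limma adjusted p = 0.00015). For pqn-25 the atfs-1 libraries had 2.37, 1.63 and 1.79 CPM, and the difference was 1.51 (SE 0.16, adjusted p = 3.4e-08). Both comparisons use the same double-mutant libraries. Of the abu genes 0 were called (3 higher at an unadjusted p under 0.05, edgeR 0). Pharyngeal gland genes had 3 of 5 higher (median difference 1.03), pharyngeal muscle genes 2 of 5 higher (median 0.64) and molting genes 0 of 16 called, and their part in the result was not tested. Without nuo-6;atfs-1 replicate b, 2 members were lower.

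Of the 9 members higher in nuo-6, 8 were also higher in nuo-6;atfs-1, or 88.9% of the first and 66.7% of the 12 higher in the double mutant. Over all genes, 892 were higher in both, or 28.8% of the 3094 higher in nuo-6 and 58.0% of the 1539 higher in the double mutant. Those were pqn-18, pqn-25, pqn-42, pqn-48, pqn-60, pqn-88, pqn-92 and pqn-94. Of the 23 lower in nuo-6, 1 (pqn-68) was lower in nuo-6;atfs-1, beside 19.1% of the 2484 genes lower in nuo-6 over all genes.

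The test of the difference between the nuo-6;atfs-1 effect and the nuo-6 effect called 6 members higher, where 3.98% of all genes were, and 0 lower, where 5.58% were (limma, 3 lower at an unadjusted p under 0.05, edgeR 0). They were pqn-25, pqn-35, pqn-36, pqn-73, pqn-75 and pqn-88. The gene pqn-75 had 6.16 to 10.3 CPM in nuo-6 (median 7.51) and 5.49 to 8.48 CPM in batch 2 wild type (median 7.0), with a difference of 0.21 (SE 0.21, adjusted p = 0.454), so that its effect in nuo-6;atfs-1 was larger by 1.77 (SE 0.36, adjusted p = 0.00131). The gene pqn-36 was lower in nuo-6, with 6.17 to 17.3 CPM in nuo-6 (median 9.70) and 15.3 to 18.4 CPM in wild type (median 18.1), and higher in nuo-6;atfs-1, with 5.54, 5.92 and 3.55 CPM against 2.16, 2.46 and 2.20 CPM in wild type.

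Of the 11 abu genes 0 passed this test (9 at an unadjusted p under 0.05, edgeR 0), with differences of 1.13 to 1.87. The nuo-6;atfs-1 and nuo-6 effects were measured in different batches, and wild-type levels of pqn-75 were 1.10 to 1.76 CPM in batch 3 and 5.49 to 8.48 CPM in batch 2. Without nuo-6 replicate 2, or without replicate 3, there were 13 members higher, and without replicate 6 there was 1 lower.

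Over the 8 comparisons with wild type, no member was called in more than 5. The genes pqn-42 and pqn-68 were called in 5, and 12 pqn genes in none: pqn-15, pqn-27, pqn-39, pqn-41, pqn-44, pqn-52, pqn-53, pqn-65, pqn-80, pqn-85, pqn-87 and pqn-96. The cohesin loader gene pqn-85 had means of 158 to 256 CPM over the mutant groups and 199 to 229 CPM over the wild types. The polyglutamine-repeat gene pqn-41 had means of 74.3 to 99.2 CPM over the mutant groups and 69.7 to 93.7 CPM over the wild types. The poly(A) polymerase gene pqn-44 was not called but was uneven within groups, with 99.2 to 1308 CPM in nuo-6 and 84.1 to 381 CPM in batch 2 wild type.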

How the data were processed

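Whole prefertile young adult worms were sequenced (Kapa stranded mRNA-seq, 75 base single reads). The authors aligned reads to WBcel235 with STAR 2.5.2b and Ensembl 89 and counted them per gene. The deposited CPM table gives library-size scaled reads for every gene. The deposited filtered table holds normalized values whose unit is a signal, each library's CPM times 1 constant. Whole reads were recovered from 100% of the CPM values (within 0.01) for edgeR. No deposited column lacked a sample.

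Members and lists were chosen with earlier results of these data known. Log2(normalized CPM + 0.5) was fitted with limma 3.58.1 (trend) in R 4.3.3, with 1 mean per genotype and batch over 43 libraries. This unit differs from raw CPM only by the authors' library factors. An adjusted p under 0.05 was called. Genes named with values were all abu genes and, for each comparison with wild type, up to 5 called members each way that did not overlap between groups and averaged 1 CPM or more in a group; other genes with values were chosen after their values were seen. Positions come from Ensembl 115 of the same build. Grouping by protein composition was not done, since no protein sequences were used here. In simulated data limma recovered 80% of 2-fold changes in nuo-6, 52% in nuo-6;atfs-1, 63% in atfs-1(et15) and 61% in nuo-6;hif-1. In each, 100 genes of 13837 were changed 2-fold and another 100 were changed 4-fold. Many more genes were called in the real comparisons, so recovery there may differ.

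Alternatives were another pseudocount (0.1 or 2 CPM), scaling by library size alone, a mean of at least 5 CPM, no filter, an additive batch term (the authors' form), a replicate block, the molting level as a covariate, edgeR 4.0.16 on recovered reads, stricter thresholds, each library left out and, chosen after seeing the data, the batch 3 wild type as reference of both deletion groups. Replicate labels b, bl and r paired atfs-1 with wild type of batch 3: their deviations correlated at 0.69, 0.45 and 0.63, and the block left 0 members called there.

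Lists used were molting, yolk, oocyte and eggshell, sperm, pharyngeal muscle, pharyngeal gland, chs-2, other tissues, endoplasmic reticulum unfolded protein response and cuticle collagens. The following counts, against wild type of the same batch, are not beside the results. In nuo-6, pharyngeal gland had 1 higher and 1 lower of 5, yolk had 0 of 6 called, oocyte and eggshell 1 of 16 higher, sperm 4 higher and 3 lower of 33, other tissues 1 higher and 1 lower of 9, and collagens 32 higher and 40 lower of 116. In nuo-6;atfs-1, yolk had 1 lower, oocyte and eggshell 0 called, sperm 1 lower, the endoplasmic reticulum list 1 lower, chs-2 was not called, other tissues 1 higher and 1 lower, and collagens 6 higher and 3 lower. In the deletion libraries of batch 1, yolk, oocyte and eggshell and chs-2 had 0 called, sperm 7 lower, the endoplasmic reticulum list 1 higher, other tissues 1 higher and 4 lower, and collagens 5 higher and 12 lower. In atfs-1 and hif-1, 0 genes of any list were called. In atfs-1(et17), pharyngeal muscle had 1 lower, other tissues 1 higher, collagens 1 higher and the other lists 0. In nuo-6;hif-1, chs-2 was higher, other tissues had 3 higher and 2 lower, and collagens 67 higher and 9 lower. In atfs-1(et15), pharyngeal gland had 2 of 5 higher, chs-2 was not called, sperm had 20 lower, the endoplasmic reticulum list 2 of 17 higher, other tissues 2 higher and 2 lower, and collagens 65 higher and 17 lower.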

Additional observations from a re-analysis of the deposited data

Results flagged for a closer look

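Of 124 groups of 4 to 10 libraries examined for 31 named genes, 10 held a library far from the others, where chance flags about 1 in 20. Replicate 3 of nuo-6 stood above its group for pqn-21 (57.6 CPM), pqn-31 (54.9 CPM), pqn-59 (737 CPM), pqn-88 (9.81 CPM) and pqn-94 (87.2 CPM). Replicate 3 of atfs-1(et15) stood apart for abu-8 (46.5 CPM, the lowest), pqn-13 (49.4 CPM) and pqn-35 (68.4 CPM). Wild-type replicate 7 stood apart for pqn-25 (9.63 CPM) and wild-type replicate 4 for pqn-94 (25.4 CPM).

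The signed effect in nuo-6;atfs-1 lay above that in nuo-6 by 0.87 for pqn-88, 1.29 for pqn-25, 1.5 for pqn-73, 1.70 for pqn-35, 1.74 for pqn-36 and 1.77 for pqn-75 (log2 scale, limma). Of these, pqn-35, pqn-36 and pqn-73 were lower in nuo-6 than in wild type. The signed effect in atfs-1 of batch 3 lay above that in the deletion libraries labelled batch 1 by 1.55 for pqn-25, 1.79 for pqn-94, 2.12 for pqn-75, 2.21 for pqn-2, 2.31 for abu-11, 2.5 for abu-1, 2.52 for pqn-71, 2.62 for pqn-54, 2.63 for pqn-36, 2.64 for abu-6, 2.67 for abu-8, 2.75 for abu-10, 2.87 for abu-15 and 2.90 for abu-7. Each of these genes had been called lower in the deletion libraries against wild type of batch 1. The abu median was −0.63 in atfs-1 against wild type of batch 3, where 0 abu genes were called. It was −3.30 in the deletion libraries against wild type of batch 1. Both sets of differences cross batches. For the second set, the wild type of batch 3 used for both groups left 0 members called.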

How the results depend on the processing

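Values are counts of members called, and the share of all genes called under each alternative is not given here. With the molting level as a covariate there were 14 higher in nuo-6, 5 lower in nuo-6;atfs-1, 1 lower in atfs-1, 4 higher in the deletion libraries, 1 higher and 2 lower in atfs-1(et15), 1 lower in hif-1, 4 higher and 3 lower in nuo-6;hif-1, 4 higher and 0 lower for nuo-6;hif-1 against hif-1, 0 lower for atfs-1(et15) against atfs-1(et17), 1 lower for the nuo-6;atfs-1 minus nuo-6 effects, and 27 higher and 1 lower for the difference of the deletion effects. It reversed abu-12 in the deletion libraries (−0.73), abu-12 (−0.28), abu-13 (−0.081), pqn-32 (−0.11) and pqn-35 (−0.19) in atfs-1(et15), and abu-1 (−0.12), abu-12 (−0.75), abu-13 (−0.023), abu-14 (−0.59), pqn-13 (−0.64), pqn-32 (−0.21) and pqn-67 (−0.070) in nuo-6;hif-1. The cause was not tested. The wild type of batch 3 as reference gave 0 higher and 0 lower in the deletion libraries, 0 higher for the difference of the deletion effects, and −0.057 for pqn-68.

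Library size as the only scaling gave 1 lower in nuo-6;atfs-1 (beside 15 higher), 1 higher in the deletion libraries, 5 lower in atfs-1(et15) (beside 14 higher), 0 lower in atfs-1(et17) and 10 higher for the nuo-6;atfs-1 minus nuo-6 effects. It moved the median of all genes to −0.11 in nuo-6, 0.12 in nuo-6;atfs-1 against atfs-1 and 0.18 for the nuo-6;atfs-1 minus nuo-6 effects. The additive batch term, which takes both deletion groups as 1 genotype, gave 18 lower in atfs-1, 0 higher in the deletion libraries, 22 higher in atfs-1(et15), 2 higher in atfs-1(et17), 22 higher and 3 lower for nuo-6;atfs-1 against atfs-1, and 2 higher and 1 lower for the nuo-6;atfs-1 minus nuo-6 effects. With edgeR there were 0 higher in the deletion libraries and 6 higher in atfs-1(et15). A mean of at least 5 CPM gave 7 higher in atfs-1(et15), 0 lower in atfs-1(et17) and 1 lower for atfs-1(et15) against atfs-1(et17). No filter gave 1 lower for that comparison and 7 higher for the difference of the deletion effects, and a pseudocount of 2 CPM gave 1 lower for that comparison. An adjusted p under 0.01 gave 0 higher in the deletion libraries, 5 higher and 3 lower in atfs-1(et15), 0 lower in atfs-1(et17), 12 higher in nuo-6;hif-1, 0 lower for atfs-1(et15) against atfs-1(et17) and 7 higher for the difference of the deletion effects. A further 2-fold threshold left 2 higher in nuo-6, 0 lower in nuo-6;atfs-1, 0 higher in the deletion libraries, 7 higher and 1 lower in atfs-1(et15), 0 higher and 0 lower in atfs-1(et17), 3 lower in nuo-6;hif-1, 0 lower for nuo-6;atfs-1 against atfs-1, 2 lower for nuo-6;hif-1 against hif-1 and 0 lower for atfs-1(et15) against atfs-1(et17).

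The replicate block gave 4 higher in the deletion libraries, 4 lower for nuo-6;atfs-1 against atfs-1, 2 higher and 4 lower for atfs-1(et15) against atfs-1(et17), and 1 lower for the difference of the deletion effects. Outside atfs-1 and wild type of batch 3, libraries with the same replicate label did not all deviate together (correlations from −0.64 to 0.75, and 0.23, −0.42 and 0.75 for labels b, bl and r of nuo-6;atfs-1), so these labels were not taken as pairs, which does not show that they share nothing.

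Leaving out each library in turn gave, higher and lower, 9 to 11 and 20 to 29 in nuo-6, 8 to 11 and 2 to 2 in nuo-6;atfs-1, 0 to 0 and 0 to 0 in atfs-1, 0 to 3 and 19 to 25 in the deletion libraries, 2 to 14 and 2 to 10 in atfs-1(et15), 1 to 5 and 0 to 1 in atfs-1(et17), 0 to 0 and 0 to 1 in hif-1, and 13 to 26 and 4 to 7 in nuo-6;hif-1. It gave 8 to 13 and 1 to 2 for nuo-6;atfs-1 against atfs-1, 19 to 30 and 4 to 8 for nuo-6;hif-1 against hif-1, 0 to 0 and 0 to 3 for atfs-1(et15) against atfs-1(et17), 4 to 13 and 0 to 1 for the nuo-6;atfs-1 minus nuo-6 effects, and 3 to 18 and 0 to 1 for the difference of the deletion effects. Where 1 nuo-6;hif-1 library was left, it was assumed to vary like the other groups. The pseudocount compresses differences of members under 1 CPM, such as abu-4 in nuo-6.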
